A study of Rattus norvegicus with 6 samples.

Results

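The mitotic and S-phase genes are 34 genes that drive DNA synthesis, chromosome segregation and cell division. Their members were taken as the array probes whose RefSeq transcript, without its version, belongs to one of these genes. The minichromosome maintenance (MCM) helicase genes were kept out of the set. A probe was found for 32 of the 34 genes, among 15645 genes named on the array, and these had 64 of its 61537 probes. No probe was matched to Top2a or Bub1b. Of the 64 probes, 9 were too dim to be kept, which left 55 probes and 31 genes. Hmmr, a spindle protein gene, was left out as dim, with its single probe well above background on 1 of 3 DPG arrays and 1 of 3 water arrays.

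The tissue was renal cortex from 6 male Sprague-Dawley rats bought at 5 weeks of age, each hybridised alone to an Agilent array with a single dye. The 3 rats of the dipropylene glycol (DPG) group received this glycol solvent at 1000 mg/kg/day for 4 weeks. The 3 rats of the water group received water for the same time. DPG 1 to 3 and water 1 to 3 below are the single animals.

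Most tubule cells of the adult renal cortex are at rest, and few of them divide at any time. A cell that enters the cycle switches on D- and E-type cyclins in G1, then enzymes that supply nucleotides for DNA synthesis, and last the cyclins, kinases and motor proteins of mitosis. Transcription of the early genes depends on E2F factors, and that of the late genes on the MuvB complex with B-Myb and FOXM1, which binds the cell cycle homology region (CHR) of promoters, often close to CCAAT boxes bound by NF-Y. Because the RNA came from whole tissue, more cells in cycle and more of these transcripts per cell cannot be told apart.

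Between 39556 (water 3) and 43184 (water 2) of the 61537 probes were well above background on the water arrays, and between 41524 and 41937 were on the DPG arrays. Water 3 also had 34 spots with outlier flags, against 4 in DPG 1 and 0 in the others. With 3 arrays a group, precision is limited by their number. The 3 DPG arrays lay on one slide and in one scan run and the 3 water arrays on another, so slide and treatment cannot be told apart. Cortex markers were measured, with all 9 genes of the convoluted proximal tubule and all 7 podocyte genes tested.

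The comparison asked whether genes of the mitotic and S-phase set had other levels in DPG rats than in water rats. The signal of 29 of 31 tested genes was higher on average in the DPG arrays, by a median of 0.26 (log2). With the normexp background correction the median was 0.16, with 28 of 31 genes above 0 and 10 higher at an unadjusted p of 0.05, where 8.05% of all features were. The log2 fold changes, DPG over water, ran from -0.22 (Tyms) to 0.48 (Ccne1). Kif23, Nusap1, Aurka, Ube2c and Tk1 had the smallest p values, with differences between 1.19-fold and 1.39-fold. No member passed an adjusted p of 0.05 with limma and Benjamini-Hochberg adjustment over all 29647 features, and the smallest adjusted p was 0.232, for Kif23.

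At that adjusted threshold 0 of 29647 features (0%) were called, and the smallest adjusted p over all features was 0.125. At an unadjusted limma p of 0.05, 14 of the 31 genes (45.2%) were higher in DPG and 0 were lower, where 6.68% of all features were higher and 5.7% lower at the same p. For 15 genes (48.4%) every DPG array lay above every water array, and over all features this share was 10.7%. For 0 genes every DPG array lay below every water array, where the share over all features was 8.96%. The log2 fold change was above 0 for 93.5% of the genes and for 50.8% of all features, and 11 genes (35.5%) were at least 1.25-fold higher, against 7.53% of all features. Over all features the median log2 fold change was 0.003, and 89.7% of them had a smaller value than the median member. The counts rest partly on single animals: the 14 became 7 without water 1 (4.9% of all features), 9 without water 2 (6.22%), 7 without DPG 2 (5.35%) and 8 without DPG 3 (6.61%), each with fewer arrays in the test. Aurkb passed the filter on dim probes only through the DPG arrays. With no such filter, 30 of 32 genes lay above 0 and 11 were higher at an unadjusted p of 0.05, where 49.8% of all features lay above 0 and 3.73% were higher.

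**Figure D1:**
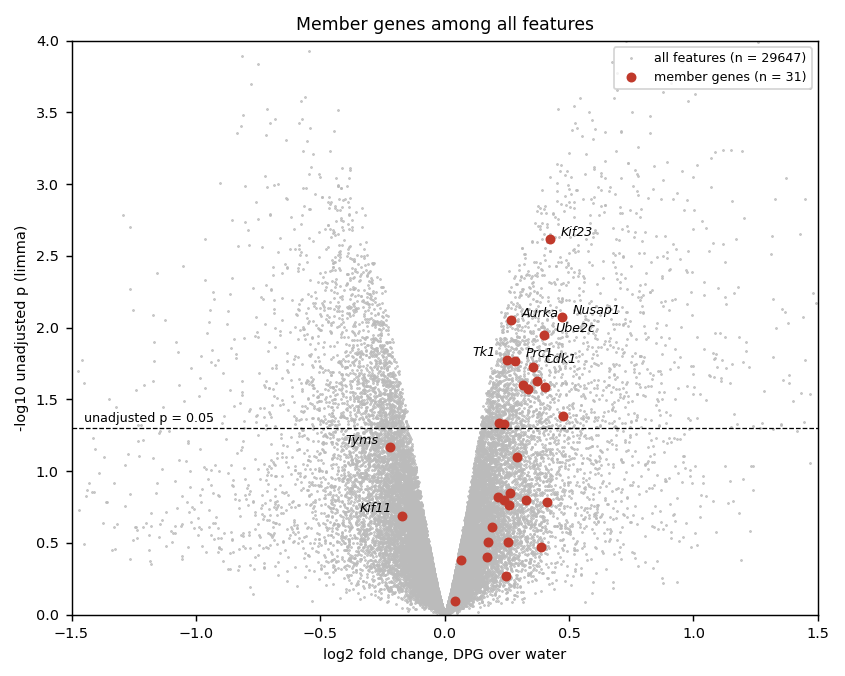
Each point is 1 feature, with the log2 fold change (DPG over water) on the horizontal axis and -log10 of the unadjusted limma p on the vertical axis; 74 features outside the axes are not drawn. The 31 member genes (red) lie to the right of 0 except Tyms and Kif11, and 14 of them are above the dashed line, which marks an unadjusted limma p of 0.05.

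A mean shift was computed for each array as the mean over the 31 genes of the log2 signal minus the mean of that gene in the water arrays. It was 0.16, 0.29 and 0.33 in DPG 1 to 3, against -0.03, -0.02 and 0.05 in water 1 to 3. In this mean all DPG arrays exceeded all water arrays, and DPG 1 lay closest to the water arrays. DPG 1 had the lowest of the DPG values for 21 of the 31 genes, where it was lowest for 32.2% of all features. DPG 3 had the highest for 17 genes, against 38.2% of all features. DPG 1 exceeded the highest water array for 17 genes, DPG 2 for 21 and DPG 3 for 23, and over all features these shares were 29.7%, 29.1% and 30.2%. The spread of the genes between animals was wider in DPG, with a median SD of 0.20 in DPG and 0.10 in water, where the median over all features was 0.12 in each group. No test of these spreads was made.

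**Figure D2:**
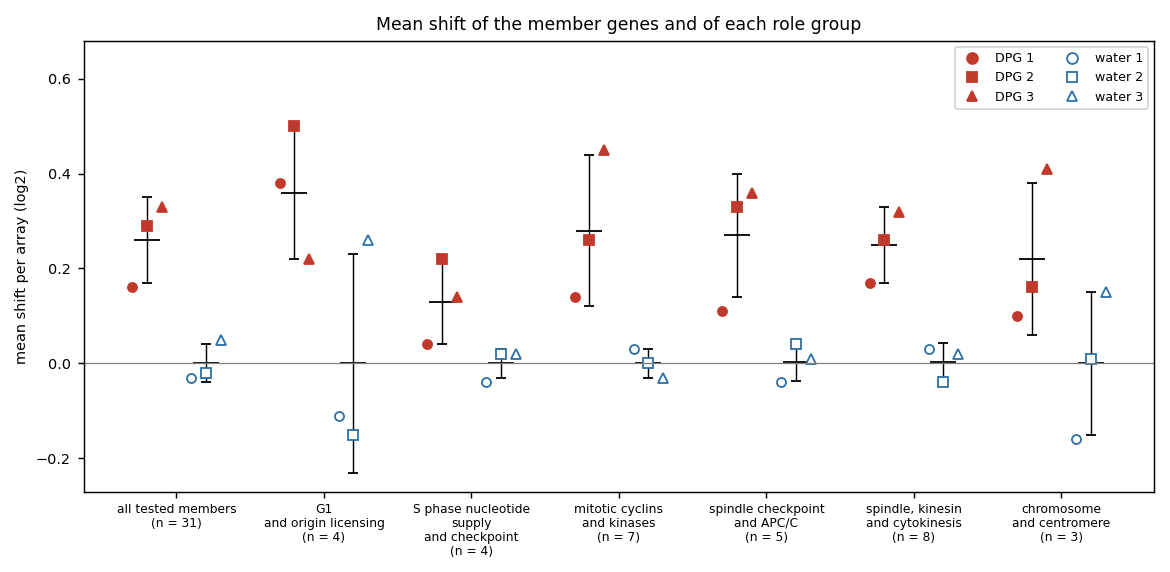
Mean shift per array (log2 signal relative to the water mean) over all 31 genes and over each role group, with 1 symbol per animal, horizontal bars for group means and vertical bars for the SD (n = 3). The DPG arrays lie above the water arrays for the whole set, and the groups overlap for the G1 genes and the chromosome genes.

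Signals of single genes are given as log2 values relative to the 75th percentile of their array, so that 0 is the signal of that percentile, and levels of different probes cannot be compared. Counts for the role groups stand against 50.8% of all features above 0, with 6.68% higher and 5.7% lower at an unadjusted p of 0.05. Among the 4 genes of G1 and origin licensing, all were above 0 and 2 were higher at an unadjusted p of 0.05. Ccnd1, cyclin D1, which activates CDK4 and CDK6 in response to growth signals, read 3.36, 3.18 and 3.45 in DPG 1 to 3, against 2.97, 2.68 and 3.13 in water 1 to 3. Every DPG array was above every water array, and the log2 fold change was 0.40 ± 0.14 (SE, limma adjusted p = 0.352). The values of its 3 probes lay between 0.32 and 0.40. Ccne1, cyclin E1, the partner of CDK2 at the start of S phase, read -3.13, -2.70 and -3.33 in DPG 1 to 3, against -3.50, -3.37 and -3.72 in water 1 to 3. Its groups were separated by a small gap between DPG 3 and water 2, with a log2 fold change of 0.48 ± 0.18 (SE, limma adjusted p = 0.392). The related cyclin gene Ccne2 had 0.33 ± 0.20, and Cdc6, which loads the MCM helicase on origins, had 0.25 ± 0.38, and their groups overlapped. Cdc6 was among the noisiest genes, reading -4.13 in water 3 against -5.46 in water 1. The mean shift of the 4 genes was 0.38, 0.50 and 0.22 in DPG 1 to 3, against -0.11, -0.15 and 0.26 in water 1 to 3, so water 3 lay above DPG 3.

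The S-phase genes lay on both sides of 0. Tk1, thymidine kinase 1, which salvages thymidine for DNA synthesis, read 0.87, 1.07 and 0.91 in DPG 1 to 3, against 0.69, 0.71 and 0.71 in water 1 to 3. The water arrays were nearly equal and all DPG arrays lay above them, with a log2 fold change of 0.25 ± 0.08 (SE, limma adjusted p = 0.326), and its other probe gave 0.37. Tyms, thymidylate synthase, which makes thymidylate anew, read -1.10, -1.05 and -0.81 in DPG 1 to 3, against -0.83, -0.68 and -0.79 in water 1 to 3. It had the lowest log2 fold change of the set, -0.22 ± 0.10 (SE, limma adjusted p = 0.441), and DPG 3 lay within the water range. Rrm2, the regulated subunit of ribonucleotide reductase, read 1.12, 1.58 and 1.69 in DPG 1 to 3, against 1.16, 1.20 and 1.24 in water 1 to 3. DPG 1 was below all water arrays while DPG 2 and 3 were above them, and all 4 probes of Rrm2 had values above 0, from 0.11 to 0.38. Chek1, the replication checkpoint kinase, had 0.24 ± 0.15, with DPG 3 below the water arrays. At an unadjusted p of 0.05, 1 of these 4 genes was higher and 0 were lower.

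All 7 genes of mitotic cyclins and kinases were above 0, and 4 were higher at an unadjusted p of 0.05. Aurka, Aurora A kinase, which builds the spindle poles, read -0.31, -0.28 and -0.39 in DPG 1 to 3, against -0.52, -0.65 and -0.61 in water 1 to 3. The spread in each group was small, and the log2 fold change was 0.27 ± 0.07 (SE, limma adjusted p = 0.292), with 0.16 for its other probe. Cdk1, the kinase that drives entry into mitosis, read 1.02, 1.36 and 1.38 in DPG 1 to 3, against 0.89, 0.90 and 0.90 in water 1 to 3. DPG 2 and 3 were well clear of the water arrays and DPG 1 only a little above them, for a log2 fold change of 0.36 ± 0.11 (SE, limma adjusted p = 0.331). Ccna2, cyclin A2, which acts in S phase and early mitosis, read -1.23, -0.81 and -0.93 in DPG 1 to 3, against -1.27, -1.39 and -1.43 in water 1 to 3. DPG 1 was again the lowest of its group, and across its 3 kept probes the log2 fold change ran from 0.37 to 0.51. Plk1, Polo-like kinase 1, read -0.22, -0.21 and -0.04 in DPG 1 to 3, against -0.37, -0.47 and -0.28 in water 1 to 3. Its log2 fold change was 0.22 ± 0.09 (SE, limma adjusted p = 0.398) with no overlap of the groups. The B-type cyclin genes Ccnb1 and Ccnb2, whose products pair with CDK1, had smaller and noisier values of 0.17 ± 0.19 and 0.19 ± 0.15, and DPG 1 lay within the water range for both. Aurkb, the Aurora kinase of the centromere, read -4.70, -5.03 and -4.32 in DPG 1 to 3, against -5.11, -4.69 and -5.49 in water 1 to 3, where it was well above background on 2 of 3 arrays. Its groups overlapped (log2 fold change 0.41 ± 0.26).

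**Figure D3:**
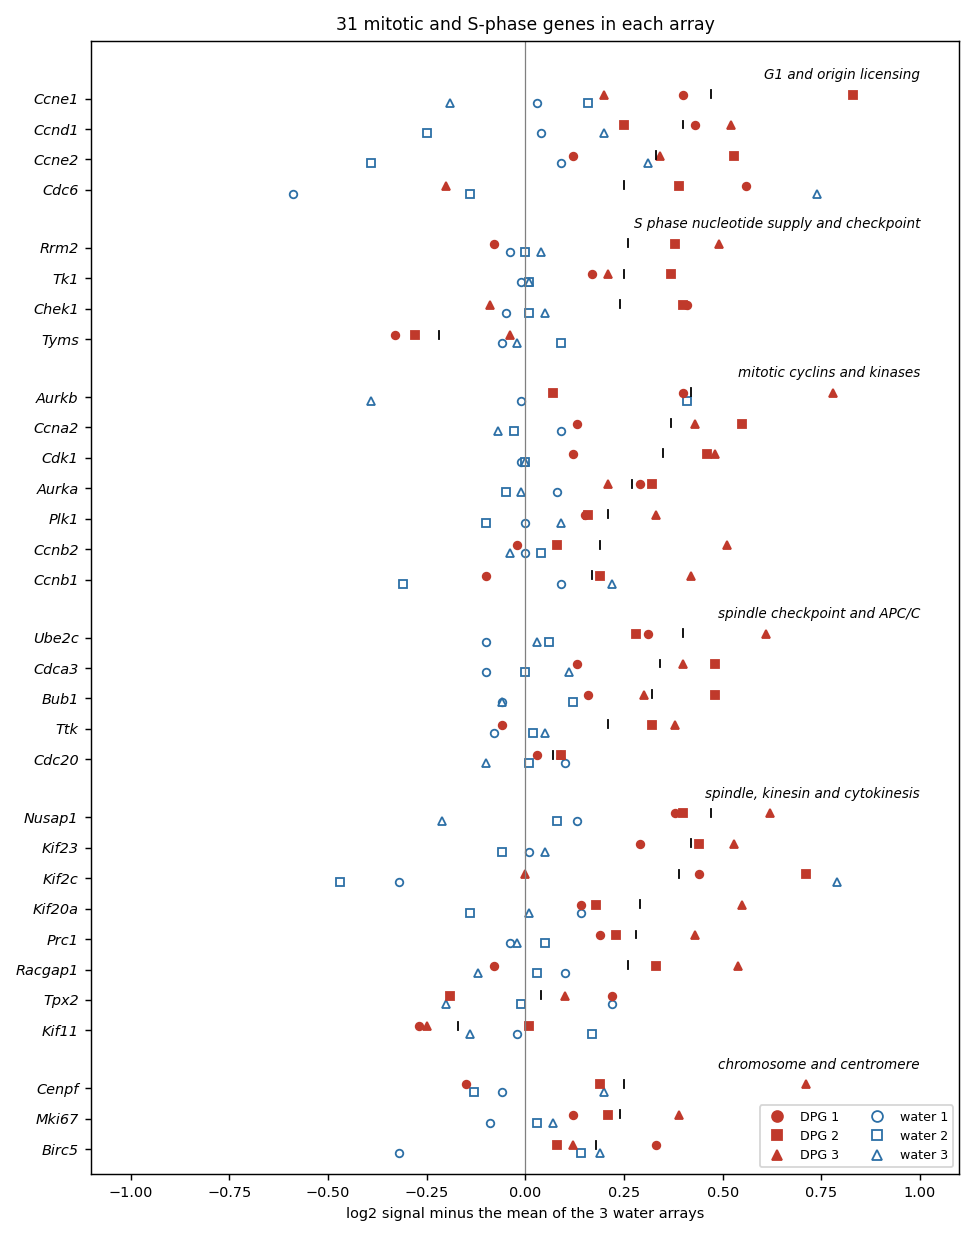
Log2 signal of each of the 31 genes in each array, minus the mean of the 3 water arrays, by role, with filled red symbols for DPG, open blue symbols for water and a black bar for the DPG mean. The DPG symbols lie to the right of all water symbols for 15 genes, and the DPG mean is left of 0 only for Tyms and Kif11.

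The spindle assembly checkpoint holds anaphase back until all chromosomes are attached, and the anaphase-promoting complex (APC/C) then marks cyclins for degradation. All 5 tested genes of this group were above 0, and 3 were higher at an unadjusted p of 0.05. Ube2c, the ubiquitin-conjugating enzyme of the APC/C, read -1.64, -1.67 and -1.34 in DPG 1 to 3, against -2.05, -1.89 and -1.92 in water 1 to 3. Its groups did not overlap (log2 fold change 0.40 ± 0.11, SE, limma adjusted p = 0.303). Bub1, a checkpoint kinase, read -1.66, -1.34 and -1.52 in DPG 1 to 3, against -1.88, -1.70 and -1.88 in water 1 to 3. The gap between DPG 1 and water 2 was small, and its other kept probe had a log2 fold change of only 0.02 where the gene's own was 0.31. Cdca3, an adaptor that triggers mitotic entry, read -0.45, -0.10 and -0.18 in DPG 1 to 3, against -0.68, -0.58 and -0.47 in water 1 to 3. DPG 1 was just above water 3, and the log2 fold change was 0.33 ± 0.11 (SE, limma adjusted p = 0.353). Ttk, the upstream kinase of the checkpoint, had 0.21 ± 0.13 with overlapping groups. A dimmer probe of it was well above background on 3 of 3 DPG arrays but on 1 of 3 water arrays. Cdc20, the activator of the APC/C, was nearly level at 0.07 ± 0.08.

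The genes of the spindle, its kinesin motors and cytokinesis included the members with the smallest p. Of 8 tested genes, 7 were above 0 and 3 were higher at an unadjusted p of 0.05. Kif23, a kinesin of the central spindle needed for cytokinesis, read -2.07, -1.92 and -1.83 in DPG 1 to 3, against -2.35, -2.42 and -2.31 in water 1 to 3. Every DPG array was above every water array, with a log2 fold change of 0.42 ± 0.08 (SE, limma adjusted p = 0.232). Nusap1, which bundles spindle microtubules, read -1.06, -1.04 and -0.82 in DPG 1 to 3, against -1.31, -1.36 and -1.65 in water 1 to 3. Its groups were also separate, with a log2 fold change of 0.47 ± 0.12 (SE, limma adjusted p = 0.289). Prc1, which bundles microtubules at the spindle midzone, read -1.27, -1.23 and -1.03 in DPG 1 to 3, against -1.50, -1.41 and -1.48 in water 1 to 3. The log2 fold change was 0.28 ± 0.09 (SE, limma adjusted p = 0.326), but its dimmer probe gave -0.13. Kif20a, another midzone kinesin, had 0.29 ± 0.14, and its DPG arrays lay above the water arrays by a margin that vanished at 2 decimals between DPG 1 and water 1. Racgap1, which forms a complex with KIF23, had 0.26 ± 0.17, with its 3 probes from -0.01 to 0.26. Kif2c, a microtubule depolymerase of the centromere, and Tpx2, an activator of Aurora A, had 0.39 ± 0.37 and 0.04 ± 0.15 with overlapping groups. Kif11, the motor that pushes the spindle poles apart, was the one of these 8 genes below 0. It read 1.85, 2.13 and 1.87 in DPG 1 to 3, against 2.10, 2.29 and 1.98 in water 1 to 3, for a log2 fold change of -0.17 ± 0.12 (SE, limma adjusted p = 0.604). Its other kept probe read -1.03, -0.90 and -0.94 in DPG 1 to 3, against -0.68, -0.55 and -0.71 in water 1 to 3, so that the DPG arrays lay below the water arrays for that probe (-0.30 ± 0.08, SE, limma adjusted p = 0.283 over all probes).

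The chromosome and centromere genes had a median log2 fold change of 0.24. Mki67, the Ki-67 proliferation antigen found in all cycling cells, read 0.16, 0.25 and 0.43 in DPG 1 to 3, against -0.05, 0.07 and 0.11 in water 1 to 3. Its groups were separate (log2 fold change 0.24 ± 0.09, SE, limma adjusted p = 0.4), and its 5 probes lay between 0.15 and 0.36. Birc5, the survivin subunit of the chromosomal passenger complex, had 0.17 ± 0.16, with water 1 far below the other water arrays (-0.91, against -0.45 and -0.40 in water 2 and 3). Cenpf, a kinetochore protein of late cell cycle, had 0.25 ± 0.23, and its 3 kept probes ranged from -0.14 to 0.45. Of these 3 tested genes, 1 was higher at an unadjusted p of 0.05.

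Where a gene had several kept probes, they mostly pointed the same way. Of 14 such genes, all kept probes were above 0 for 9, all were below 0 for Kif11, and Kif2c, Prc1, Racgap1 and Cenpf had probes of both signs. Taken one by one, 48 of 55 kept probes (87.3%) had a log2 fold change above 0, where 50.3% of all kept probes on the array did. The probes higher at an unadjusted p of 0.05 numbered 24 (43.6%), where 6.56% of all kept probes passed, and a single probe, of Kif11, was lower. Of the 55 probes, 3 (of Aurkb, Rrm2 and Ttk) passed the filter on dim probes only through the DPG arrays, and without them 45 of 52 lay above 0 and 23 were higher. Probes of 1 gene share its transcript and are not independent.

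**Figure D4:**
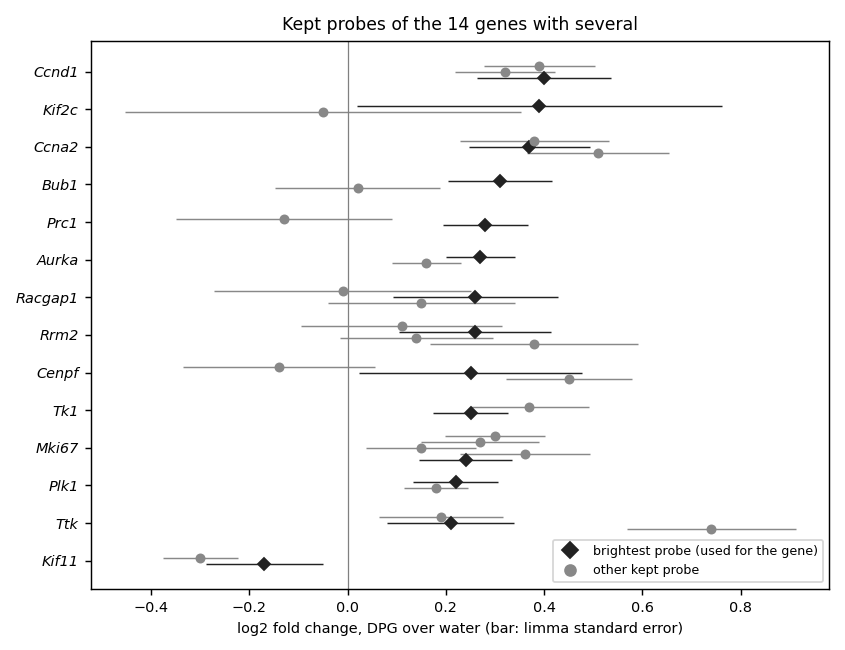
Log2 fold change (DPG over water) of each kept probe of the 14 genes with several, with the limma standard error as a bar and a diamond for the brightest probe, which stood for the gene. All 5 Mki67 probes and all 3 Ccnd1 probes lie right of 0, and both Kif11 probes lie left of it.

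Promoters of the members were searched for motifs of these factors, whatever the direction of each gene. The members were picked as cell cycle genes, so the shares below say nothing about the difference between DPG and water. Of the 34 genes, 25 had a RefSeq promoter in the table for GRCr8, covering 250 bases before to 50 after the start of the gene, and Ube2c was among the 9 that had none. The 6 letters TTTGAA of the CHR, searched on both strands, were in 14 of the 25 member promoters (56%) and in 18.1% of all 27457 promoters of the same length. CCAAT, on both strands, was in 17 (68%) against 37.7%, and at least 2 copies of it in 13 (52%) against 11.5%. Both motifs stood together in 13 members (52%) and in 7.25% of all promoters, among them Mki67, Cdk1, Ccnb2, Plk1, Prc1 and Ttk. Top2a, Bub1b and Hmmr, whose levels were not tested, are among the 14 with TTTGAA. Top2a and Hmmr are also among the 13 with both. Of the E2F motifs, also searched on both strands, TTGGCGC was in 3 members (12%), against 2.43% of all promoters. The form TTCCCGC was in 2 (8%), against 4.47%, and TTCGCGC in 1 (4%), against 1.58%. Any of these was in 5 members (20%) against 7.97%, and the CHR variant TTCGAA was in 2 (8%) against 1.77%. TTGGCGC can overlap a CCAAT box on the opposite strand, and each was then counted. A match describes letters only. Promoters were to be shown for the 4 members with the smallest p. They are given for Kif23, Nusap1 and Aurka, since Ube2c, the other of the 4, had none. The searched motifs are in capitals, and each promoter runs 5′ to 3′ on the strand of its gene.
Kif23 (chr8:71320535-71320834, minus strand, GRCr8): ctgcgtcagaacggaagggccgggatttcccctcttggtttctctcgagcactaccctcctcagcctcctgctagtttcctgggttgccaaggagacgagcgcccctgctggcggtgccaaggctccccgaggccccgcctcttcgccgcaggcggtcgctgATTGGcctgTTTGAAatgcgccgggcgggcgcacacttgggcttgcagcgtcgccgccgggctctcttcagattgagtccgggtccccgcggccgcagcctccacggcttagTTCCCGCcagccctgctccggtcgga
Nusap1 (chr3:127057045-127057344, plus strand, GRCr8): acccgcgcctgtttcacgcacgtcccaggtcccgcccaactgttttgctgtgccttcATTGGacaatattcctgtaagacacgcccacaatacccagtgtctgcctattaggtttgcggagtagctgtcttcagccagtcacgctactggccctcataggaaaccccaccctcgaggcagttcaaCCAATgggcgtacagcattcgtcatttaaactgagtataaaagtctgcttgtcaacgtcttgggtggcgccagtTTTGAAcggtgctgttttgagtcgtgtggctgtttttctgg
Aurka (chr3:181560720-181561019, minus strand, GRCr8): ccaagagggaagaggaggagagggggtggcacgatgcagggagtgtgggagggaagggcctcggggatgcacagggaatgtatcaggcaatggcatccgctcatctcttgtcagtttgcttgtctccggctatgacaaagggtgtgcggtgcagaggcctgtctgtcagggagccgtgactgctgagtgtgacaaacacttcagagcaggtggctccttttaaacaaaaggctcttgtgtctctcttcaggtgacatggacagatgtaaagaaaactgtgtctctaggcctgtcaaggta
In Kif23 a CCAAT box on the opposite strand starts 88 bases and TTTGAA 79 bases before the start of the gene, and TTCCCGC begins at base 25 after it. Nusap1 has CCAAT boxes 193 and 65 bases before its start and TTTGAA at base 10 after it. Aurka holds none of the searched motifs in this window, and neither does Tk1. Each window is set by the annotated start of the gene. In Aurka a start codon (ATG) follows that start within a few bases, so its window may not hold the promoter. The lack of motifs there cannot show that the Aurka promoter has none. Aurka and Tk1 were both among the 5 members with the smallest p. Tyms, the member with the lowest log2 fold change, has an E2F motif (TTGGCGC) and neither TTTGAA nor CCAAT.

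The other genes of the pathway were read from lists chosen with earlier results of these data known. Of all features, 50.8% lay above 0, and 6.68% were higher and 5.7% lower at an unadjusted p of 0.05. Of 33 other kinetochore, spindle and chromosome genes, 21 were tested, with 17 above 0, a median of 0.20, 5 higher and 1 lower at an unadjusted p of 0.05. The separase gene Espl1 had 0.36 ± 0.10 (SE), with its other probe at 0.11. The spindle gene Ckap2 had 0.31 ± 0.09, with its 3 probes from 0.06 to 0.34. Kif15, a spindle kinesin gene that shares work with Kif11, had -1.05 ± 0.23. The single kept Kif15 probe read -4.57, -4.88 and -4.69 in DPG 1 to 3, against -4.17, -3.36 and -3.47 in water 1 to 3, and its limma adjusted p was 0.254. Of the E2F, MYB and FOXM1 factors, 7 of 8 tested were above 0, with a median of 0.12 and 2 higher at an unadjusted p of 0.05. E2f1, an activator of S-phase genes, read -0.91, -0.71 and -0.99 in DPG 1 to 3, against -1.15, -1.20 and -1.36 in water 1 to 3. Across its 4 probes the values ran from 0.37 to 0.98. Mybl1, the gene of A-Myb and not of the B-Myb named above, had 0.72 ± 0.21. Lin54, the DNA-binding subunit of MuvB, had 0.12 ± 0.07.

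Replication genes outside the set were more mixed. Of 18 tested, 12 were above 0 and the median was 0.12. Pcna, the sliding clamp of DNA polymerases, had 0.29 ± 0.09 (SE), but its other probe gave 0.05. The nucleotide hydrolase gene Dut had 0.28 ± 0.13, with its other probe at 0.14. Pola1, the catalytic subunit of the primase-bound polymerase, had -0.36 ± 0.09, with its other probe at -0.43. At an unadjusted p of 0.05 only Pcna was higher and only Pola1 lower, close to the shares over all features (6.68% higher and 5.7% lower). The MCM genes, 6 of 7 of them tested, all lay above 0 by their brightest probe, with a median of 0.24. Mcm4 (0.31 ± 0.07) was the one higher at that p, with its other probe at -0.30. The 3 probes of Mcm2 (0.19 ± 0.08) ran from -0.13 to 0.19, and the 3 of Mcm3 (0.31 ± 0.14) from 0.31 to 0.65. The mean shift of the MCM genes was 0.23, 0.28 and 0.17 in DPG 1 to 3, against 0.01, 0.05 and -0.05 in water 1 to 3, so DPG 3 was the lowest there and the highest in the mitotic and S-phase set.

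Brakes of the cycle and other cyclin and CDK genes had medians near 0. Of 12 inhibitor and pocket protein genes tested, 6 were above and 6 below 0, with a median of 0.03. The pocket protein gene Rbl2 had 0.21 ± 0.07 (SE), but its other probe gave -0.07. Cdkn2c, an inhibitor of CDK4 and CDK6, had 0.18 ± 0.07 and Cdkn2d, of the same family, 0.15 ± 0.07. Of 9 other cyclin, CDK and CDC25 genes, 5 were above 0 with a median of 0.01, led by the CDK-activating phosphatase gene Cdc25a (0.26 ± 0.09), with Cdc25b at 0.18 ± 0.08 and the cyclin gene Ccnd2 at -0.09 ± 0.08. Early growth factor genes had a median of 0.07 over 6 genes, with the immediate early gene Fos at -0.41 ± 0.13, Id1 at 0.42 ± 0.20 and Myc at 0.28 ± 0.25. No gene named from these lists had a limma adjusted p under 0.254, and the differences between the lists were not tested.

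Markers of other cell types in the cortex are given beside this result. Of all features, 50.8% lay above 0, and 6.68% were higher and 5.7% lower at an unadjusted p of 0.05. Leukocyte and macrophage markers, 18 of 21 tested and Cd163 above background on no array, had a median of 0.16 with 16 above 0. Their mean shift was 0.25, -0.23 and 0.41 in DPG 1 to 3, against -0.16, 0.16 and 0.00 in water 1 to 3. DPG 2 was thus low for them and high for the mitotic and S-phase genes. The low value draws in part on the Cd79b probe, at -6.31 in DPG 2 against a water mean of -4.40. Their summed signal, in multiples of the 75th percentile of the array, ran from 147 to 199 in DPG and from 148 to 182 in water. At an unadjusted p of 0.05, the T cell gene Cd3e was higher (0.89 ± 0.34) and the B cell gene Cd79b lower (-1.07 ± 0.36). Each had 1 kept probe, of low signal. Cd3e read -4.36, -5.11 and -3.89 in DPG 1 to 3, against -5.53, -4.95 and -5.54 in water 1 to 3, with overlapping groups. Cd79b read -5.19, -6.31 and -4.91 in DPG 1 to 3, against -4.42, -4.29 and -4.49 in water 1 to 3. Little can be said of either at this level. Markers of the straight proximal tubule were above 0 for 6 of 7 genes, with a summed signal from 610 to 634 in DPG and from 382 to 475 in water, led by Slc7a13 (0.78 ± 0.16) and Slc6a18 (0.43 ± 0.12). Slc7a13, with a mean log2 signal of 8.27 in DPG and 7.49 in water, was a large part of these sums. At an unadjusted p of 0.05, 4 of these 7 were higher and 0 lower. Their mean shift (DPG minus water) was 0.38, against 0.26 for the mitotic and S-phase genes. Markers of the convoluted part were below 0 for 8 of 9 genes, with sums from 848 to 909 in DPG and from 905 to 1020 in water, among them Slc2a2 (-0.40 ± 0.13) and Slc5a2 (-0.29 ± 0.10). Of these 9 genes, 2 were lower at that p and 0 higher. The part of these cell types in the shift of the mitotic and S-phase genes was not tested.

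Among the remaining markers, all 7 podocyte genes were below 0 (Ptpro -0.22 ± 0.07), with summed signals from 29.4 to 36.3 in DPG and from 31.7 to 40.1 in water. Of the thick ascending limb and distal tubule genes 4 of 6 tested were above 0 (Cldn16 0.70 ± 0.06, Umod 0.25 ± 0.07), with sums from 641 to 692 in DPG and from 533 to 577 in water, and Pvalb was above background on no array. Umod, with a mean log2 signal of 9.22 in DPG and 8.97 in water, made up most of these sums. Of the collecting duct genes 6 of 8 were below 0 (Slc26a4 -0.40 ± 0.13, Aqp3 -0.39 ± 0.19), with sums from 156 to 211 in DPG and from 172 to 201 in water. Sums for endothelium ran from 74.9 to 79.8 in DPG and from 78.1 to 81.8 in water (Pecam1 0.18 ± 0.07, Cdh5 -0.14 ± 0.08), and for fibroblasts and smooth muscle from 26 to 35.6 in DPG and from 24.3 to 33.6 in water (Tagln 0.38 ± 0.17, Myh11 0.14 ± 0.16). At an unadjusted p of 0.05, 4 of the 7 podocyte genes were lower, and 3 of the 6 thick ascending limb and distal tubule genes were higher. At that p, 1 collecting duct gene was lower, 1 endothelial gene higher, and 0 fibroblast and smooth muscle genes passed. Over all features 6.68% were higher and 5.7% lower at that p. Tubular injury genes had a median of 0.08 over 6 tested genes. Their sums ran from 19.5 to 29.2 in DPG and from 21.1 to 26.9 in water, with Spp1 at 0.30 ± 0.20 and Vim at 0.15 ± 0.11, and 0 of them passed an unadjusted p of 0.05.

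**Figure D5:**
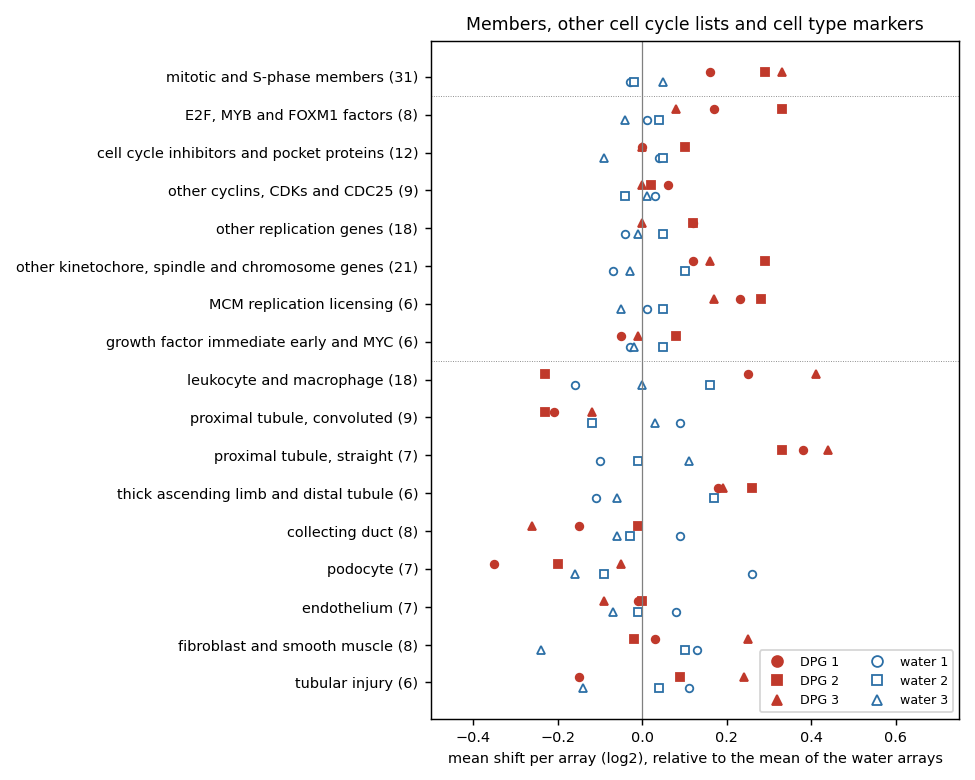
Mean shift per array (log2 signal relative to the water mean) of the mitotic and S-phase genes, of other cell cycle lists and of cell type markers, with the number of tested genes in brackets, filled red symbols for DPG and open blue symbols for water. The inhibitor, cyclin and immediate early lists stay near 0, and DPG 2 is low for leukocyte markers (-0.23) where it is 0.29 for the mitotic and S-phase genes.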

How the data were processed

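Each of the 6 arrays carried Cy3-labelled RNA of 1 rat, per the labels' protocols. The scanner files hold the spot intensity after background subtraction and detrending, not scaled between arrays, per the file headers (Agilent Feature Extraction 10.7.1.1, and 10.7 per the submitters' processing notes). The deposited table of the series holds a ratio per probe on a linear scale. Set against the scanner values it is the processed signal divided by 1 constant per array near the 75th percentile, not centred per gene, with column medians of 0.1108, 0.1084 and 0.1118 for DPG 1 to 3, and 0.1096, 0.1114 and 0.1136 for water 1 to 3. The submitters' own scaling step is not stated in these sources, and the table served as an alternative.

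Control spots were left out, and no spot was saturated (0 on each array). Log2 of the processed signal had the 75th percentile of its array subtracted. Probes well above background in every array of either group were kept (40406), and 23 with an outlier flag were dropped. Accessions without versions were matched to RefSeq genes of GRCr8, which named 28206 probes (15645 symbols), while 33331 kept the identifier of the file. Coordinates are given only for promoters, from the RefSeq table, since the array was designed on another build. The brightest kept probe stood for a gene or identifier, which gave 29647 features, of which 11924 had a gene symbol. Shares over all features include those without a symbol, while all members have one. Groups came from the labels. The test was the two-sided moderated test of limma 3.58.1 (lmFit, eBayes; R 4.3.3), with p-values adjusted by Benjamini-Hochberg across the 29647 features (threshold 0.05), and the fit was tested on simulated data. The p-values set the group difference against the spread between animals of a group. As each group lay on its own slide, they hold no spread between slides. With 3 against 3 arrays, the smallest two-sided exact permutation p is 0.1. A value followed by ± and a smaller one is a log2 fold change (DPG over water) with its limma standard error. The members and lists were chosen with earlier results of these data known. All 34 members are named, with up to 3 genes by smallest p from each other pathway list and up to 2 from each marker list, of which 1 is not reported here. Alternatives were other background correction, scaling, filters, probe summaries and variance models, the deposited table, a block for the replicate number, and leaving out each animal. The normexp alternative used the median pixel intensity of the spot and of its local background, as deposited.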

Additional observations from a re-analysis of the deposited data

How the results depend on the processing

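Over 12 settings with all 6 arrays, the median log2 fold change of the members lay between 0.16 and 0.28 and the mean shift (DPG minus water) between 0.16 and 0.27. Both were 0.16 with normexp, which adds an offset of 50 to every spot. With it 10 members were higher at an unadjusted p of 0.05, where 8.05% of all features were. With every probe on its own, 24 probes were higher, where 6.56% of all kept probes were. The count of lower members was 1 with normexp and with the mean of the probes (Kif11), with every probe on its own (a Kif11 probe) and with array quality weights (Tyms). With an animal left out, the higher members ranged from 7 to 14, where between 4.54% and 6.61% of all features were higher. The lower members ranged from 0 to 1 (Tyms, without DPG 3). The median ranged from 0.23 to 0.36 (0.36 without DPG 1) and the mean shift from 0.22 to 0.31. The features called over the whole array ranged from 0 to 1 (1 without water 2 and 1 without DPG 2). Kif23, Nusap1, Aurka, Ube2c and Tk1 were higher at an unadjusted p of 0.05 in all 18 alternatives. Of 557 member values under alternatives, 4 changed sign: Tpx2 was -0.01 with normexp, and leaving out animals gave -0.06 to 0.16 for Tpx2 and -0.05 to 0.62 for Cdc6. The cause of these changes was not tested. No member passed an adjusted p of 0.05 in any alternative, with the smallest at 0.175 (Nusap1, normexp).

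With the replicate number as a block, 13 members were higher at an unadjusted p of 0.05, where 5.4% of all features were. The median stayed at 0.26. The smallest limma adjusted p of a member was 0.449 with the block, against 0.232 without it. Deviations of same-numbered animals correlated at -0.023, -0.087 and -0.069, so no deviation shared by same-numbered animals was seen. These values cannot show whether the numbers pair the animals, since a pairing without effect on expression would look the same. The block for slides was not run, since slide and group coincide. Among the members, Aurkb was well above background on 2 of 3 water arrays and Hmmr on 1 of 3 arrays in each group, which limits what can be said of them.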
